A study of Mus musculus with 4 samples.

Results

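The 36 genes described here encode the PI3K, AKT and mTOR signalling pathway in mouse B16 tumors. They were chosen by name as genes of the pathway, with earlier results of these data known. Each of the 36 was found among the 25239 gene symbols of the count tables. All 36 also passed the minimum mean count of 10 over the libraries, as 13357 genes did in all. The list holds 5 leukocyte isoforms, which are Pik3cd, Pik3cg, Pik3r5, Pik3ap1 and Inpp5d, and 31 other members, most of them expressed in many tissues.

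Class I phosphoinositide 3-kinases (PI3K) phosphorylate a membrane lipid downstream of receptors, and the product recruits the kinases PDK1 and AKT. AKT restrains the FOXO transcription factors, the GSK3 kinases and the TSC complex, and loss of TSC activity lets the small GTPase RHEB switch on mTOR complex 1. That complex phosphorylates S6 kinases and 4E-binding proteins and so promotes translation. Leukocytes make particular use of the delta and gamma isoforms of PI3K for antigen receptor, chemokine and growth factor signals. The alpha and beta isoforms are made in most cells, melanoma cells included.

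RNA-seq was done on B16 tumors, a transplantable mouse melanoma, grown beneath the skin on each flank of B6 mice. Treatment started on day 7, CTX was given into the peritoneum on the day before ACT, and tumors were collected 12 days after ACT. Neither abbreviation is expanded in the labels. Each of 4 groups had 1 library. The CTX library is labelled as PBS injected into left tumors only, with no T cells and no virus named. The MV left tumor library came from left tumors injected with free MV, written MYXV in the table headers, the usual abbreviation of myxoma virus, in mice that received TRP-1 T cells by vein. The Remote tumor library was made from right tumors of that same treatment, which were not injected. For the TRP-1MV library, TRP-1 T cells loaded with MV were given by vein. Which flank was sampled for CTX and TRP-1MV, the age and sex of the mice, and whether animals were pooled are not stated. The labels give n = 2, but with 1 library per group no test between groups was possible. The labels also speak of mice given only T cells, and those were not analysed here.

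Library totals ranged from 12375526 to 21790759 counts. Values are TMM-scaled CPM (counts scaled to a common library size), and ratios carry in brackets a 95% exact interval that covers counting error only, not differences between mice or library preparations. Calls of higher or lower needed a ratio of 2 or more and an interval that left out equality. Summed over 8 leukocyte markers, the level was 1561 CPM in the MV left tumor, 1926 in TRP-1MV, 69.0 in the Remote tumor and 67.4 in CTX. Summed over 10 melanocyte markers it was 8558, 8432, 32692 and 31792 CPM in that order, so the pigment cell identity of the tumors was present in every library. No marker of either list was at 0 in any library. The 10 T cell markers summed to 298, 303, 5.63 and 6.21 CPM, the 11 macrophage and monocyte markers to 986, 1440, 111 and 87.8, and the 7 B cell markers to 68.0, 70.7, 1.005 and 1.30. The 7 neutrophil markers summed to 168, 267, 1.76 and 1.20 CPM, of which Mmp8 alone made up 143 in the MV left tumor and 229 in TRP-1MV, while Ly6g and Cxcr2 had 11 reads or fewer in each library. The 11 markers of fibroblasts and endothelium summed to 77.2, 78.2, 63.4 and 66.4. At 0 were 2 B cell and 2 neutrophil markers in the Remote tumor and 3 and 2 in CTX, Cxcr2 among those in CTX. In such bulk tissue a change in the number of cells of a type and a change in RNA per cell cannot be told apart, and the part of cell make-up in the results below was not tested.

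The leukocyte isoforms fell into 4 genes that were low in the CTX and Remote tumor libraries, with 11 to 95 reads, and 1, Pik3cd, that was not. The windows before the transcription starts of 3 of them are shown because they belong to genes with these contrasting levels. Each window holds the 250 bases before the RefSeq start that lies farthest upstream (build GRCm38.p6), written 5′ to 3′ on the gene's strand. Capitals mark GAGGAA or GGAAGT on either strand, letters within the site preferred by PU.1, an ETS factor of myeloid and B cells, and the matches may overlap.
Inpp5d (chr1:87620062-87620311, plus strand): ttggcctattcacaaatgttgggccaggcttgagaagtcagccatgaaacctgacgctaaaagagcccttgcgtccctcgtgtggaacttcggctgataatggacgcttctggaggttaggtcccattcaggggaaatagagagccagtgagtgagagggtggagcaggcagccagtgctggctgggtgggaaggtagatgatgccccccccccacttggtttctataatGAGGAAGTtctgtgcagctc
Pik3cg (chr12:32208660-32208909, minus strand): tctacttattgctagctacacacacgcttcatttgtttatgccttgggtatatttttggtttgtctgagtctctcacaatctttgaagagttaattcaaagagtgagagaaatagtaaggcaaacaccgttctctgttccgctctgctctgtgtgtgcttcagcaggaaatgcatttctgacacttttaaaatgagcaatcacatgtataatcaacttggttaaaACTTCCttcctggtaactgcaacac
Pik3cd (chr4:149698709-149698958, minus strand): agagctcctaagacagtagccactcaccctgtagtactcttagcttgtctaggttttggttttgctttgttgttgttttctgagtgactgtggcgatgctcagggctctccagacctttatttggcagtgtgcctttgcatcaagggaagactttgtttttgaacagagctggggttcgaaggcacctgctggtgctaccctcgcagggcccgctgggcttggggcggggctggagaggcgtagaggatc

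The Inpp5d window holds both letter strings joined, starting 20 bases before the start site, and the Pik3cg window holds GGAAGT on the reverse strand, starting 25 bases before it. Pik3cd has 3 RefSeq starts, and no window of the 3 holds either string. Over the 8 windows of the 5 leukocyte genes, 4 (50%) held a match, against 15 of 40 (37.5%) for the 26 other members with an entry and 36.7% of all 32851 windows of the table. The windows of Pik3cg overlap and share a match. Pik3ap1 had 2 matches, while Pik3r5, also low in CTX and the Remote tumor, had none. These matches are descriptions of letters, and factor binding was not measured.

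Of the catalytic subunits, Pik3cg differed most. Pik3cg (chromosome 12, 32173473 to 32208659) encodes the gamma subunit, which acts below G protein-coupled receptors such as those for chemokines. It had 612 reads in the MV left tumor, 975 in TRP-1MV, 15 in the Remote tumor and 11 in CTX, or 45.3, 60.5, 0.754 and 0.574 CPM. Both virus-treated tumors lay far above both others. The ratio to CTX was 79.0-fold in the MV left tumor, a log2 ratio of 6.30 [5.45, 7.31], and 106-fold in TRP-1MV, 6.72 [5.88, 7.73]. With only 11 reads in CTX the size of these ratios is loosely fixed, whereas against the Remote tumor the MV left tumor stood at 5.91 [5.18, 6.76].

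Pik3cd (chromosome 4, 149649168 to 149702571) encodes the delta subunit, used by T and B cell receptors. Its levels were 101 CPM in the MV left tumor, 117 in TRP-1MV, 52.1 in the Remote tumor and 53.4 in CTX, the last from 1024 reads. Both virus-treated tumors again lay above the others, but the spread was much narrower than that of Pik3cg. The log2 ratio to CTX was 0.92 [0.80, 1.03] in the MV left tumor, short of the rule, and 1.13 [1.02, 1.24] in TRP-1MV, past it. Scaling on total counts or on housekeeping genes put the MV left tumor past the rule as well.

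Set against Ptprc, which encodes the leukocyte antigen CD45, these 2 genes behaved differently. For each 100 Ptprc reads there were 1600 Pik3cd reads in CTX and 1994 in the Remote tumor, but 71.3 in the MV left tumor and 79.3 in TRP-1MV. That within-library ratio, which needs no scaling between libraries, had a log2 change of -4.49 [-4.89, -4.11] from CTX to the MV left tumor. Pik3cg had 17.2, 28.8, 32.1 and 41.1 reads per 100 Ptprc reads in CTX, the Remote tumor, the MV left tumor and TRP-1MV. Its change from CTX to the MV left tumor was 0.90 [-0.05, 1.98], an interval that includes no change, and to TRP-1MV 1.26 [0.32, 2.34]. The other 7 leukocyte markers were put in place of Ptprc after the data were seen. Ptprc had the largest rise of the 8 in the MV left tumor, so its values for that tumor are the lowest. Over the 8 markers the change from CTX to the MV left tumor ran from -4.49 to -3.05 for Pik3cd, with 8 of 8 intervals below no change, and from 0.90 to 2.33 for Pik3cg, with 7 of 8 above it. The 8 values of a gene share its reads and are not separate results. In CTX and the Remote tumor there were more Pik3cd reads than reads of each of the 8 markers. The lowest values were 148 and 136 Pik3cd reads per 100 reads of Lcp1. Pik3cd is thus called a leukocyte isoform here by name only, as its reads did not follow those of the leukocyte markers. For Pik3r5, Pik3ap1 and Inpp5d the change per Ptprc read from CTX to the MV left tumor was -0.22 [-0.91, 0.51], -0.53 [-1.16, 0.13] and -1.01 [-1.67, -0.31]. Over the 8 markers, 2, 1 and 0 of their intervals lay above no change and 0, 0 and 2 below. From the Remote tumor to the MV left tumor 0 lay above for each gene, and 6, 8 and 6 lay below.

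Pik3cb, the beta subunit found in most cells, was called higher in both virus-treated tumors. Its levels were 89.1 CPM in the MV left tumor, 86.2 in TRP-1MV, 33.96 in the Remote tumor and 36.3 in CTX, with log2 ratios to CTX of 1.30 [1.16, 1.43] and 1.25 [1.12, 1.38]. Pik3ca, the alpha subunit, had 121, 117, 79.7 and 93.4 CPM in the same order of libraries. Its ratios of 0.37 [0.27, 0.47] and 0.32 [0.22, 0.41] did not pass. Beta thus differed by more than alpha, and the read ratio of Pik3ca to Pik3cb was lower by 0.93 on the log2 scale in each virus-treated tumor than in CTX, at -0.93 [-1.09, -0.76] and -0.93 [-1.09, -0.77].

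Per kilobase of merged exons, the 4 catalytic genes can be set side by side within a library. Pik3ca made up 43.0% [41.3, 44.6] of their reads per kilobase in CTX and 28.2% [27.0, 29.4] in the MV left tumor. Pik3cg made up 0.285% [0.142, 0.509] and 11.4% [10.6, 12.3], and 14.2% [13.4, 15.04] in TRP-1MV. The Pik3cd share was 35.7% [33.98, 37.3] in CTX, 38.0% [36.3, 39.7] in the Remote tumor, 34.1% [32.7, 35.6] in the MV left tumor and 36.9% [35.6, 38.1] in TRP-1MV. The alpha subunit was the largest by this measure in CTX and the Remote tumor, though in the latter its interval of 38.4% to 41.7% overlapped that of Pik3cd, and the delta subunit was the largest in both virus-treated tumors. The plot of family make-up shows these shares beside those of other families.

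**Figure D1:**
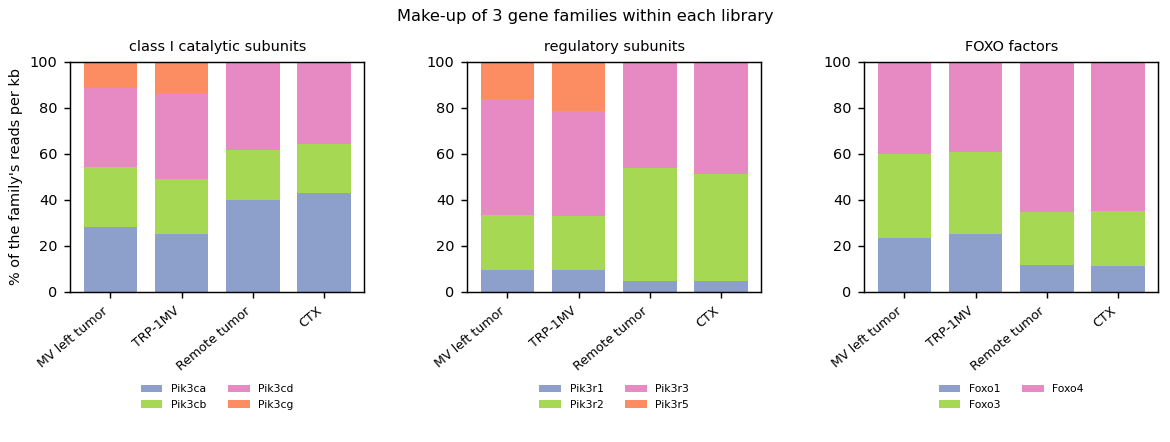
Stacked bars give each gene's share, in percent, of the reads per kilobase of merged exons of its family, for class I catalytic subunits, regulatory subunits and FOXO factors, with 1 bar per library. Pik3cg and Pik3r5 are visible only in the MV left tumor and TRP-1MV, at 11.4% and 16.0% of their families in the former.

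The regulatory subunits went in different directions. Pik3r5 (chromosome 11, 68432121 to 68497849) encodes p101, the partner of the gamma subunit. It had 667 reads in the MV left tumor, 1164 in TRP-1MV, 52 in the Remote tumor and 26 in CTX, or 49.4, 72.3, 2.61 and 1.36 CPM. Its log2 ratios to CTX were 5.19 [4.62, 5.81] and 5.74 [5.18, 6.36] in the virus-treated tumors. Pik3ap1 (chromosome 19, 41272377 to 41385102) encodes BCAP, an adaptor that links B cell and Toll-like receptors to PI3K. It had 725, 1283, 95 and 35 reads in the same order, or 53.6, 79.7, 4.77 and 1.83 CPM, and log2 ratios of 4.88 [4.39, 5.41] and 5.45 [4.96, 5.98].

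Pik3r1, which encodes p85 alpha, the main regulatory subunit of the alpha, beta and delta isoforms, had 52.3 CPM in the MV left tumor, 59.4 in TRP-1MV, 25.7 in the Remote tumor and 27.2 in CTX. The log2 ratio to CTX was 0.94 [0.78, 1.11] in the MV left tumor and 1.13 [0.97, 1.28] in TRP-1MV, and only the latter passed the rule. Upper-quartile factors, total counts or the housekeeping scale put the MV left tumor past it as well. Pik3r2, encoding p85 beta, went the other way, with 55.2, 59.9, 116 and 109 CPM and ratios of -0.98 [-1.10, -0.86] and -0.86 [-0.97, -0.75] that fell short of it. The read ratio of Pik3r1 to Pik3r2 stood at 25.05 per 100 in CTX, 22.2 in the Remote tumor, 94.8 in the MV left tumor and 99.3 in TRP-1MV. That is a log2 change of 1.92 [1.71, 2.13] from CTX to the MV left tumor, past a ratio of 2 with no scaling between libraries involved. Pik3r3, encoding p55 gamma, had 149, 148, 135 and 144 CPM and ratios of 0.05 and 0.04. On the same strand 24.3% of its exon bases are shared with Gm49337, a symbol that the count tables do not hold.

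Of the 2 lipid phosphatases that remove the 5-phosphate from the PI3K product, the leukocyte enzyme SHIP1 was called higher in both virus-treated tumors and the widespread SHIP2 was not. Inpp5d (chromosome 1, 87620312 to 87720507), encoding SHIP1, had 445 reads in the MV left tumor, 733 in TRP-1MV, 35 in the Remote tumor and 30 in CTX, or 32.9, 45.5, 1.76 and 1.56 CPM. Its log2 ratios to CTX were 4.40 [3.86, 4.98] and 4.86 [4.34, 5.44]. Inppl1, encoding SHIP2, had 193, 184, 161 and 153 CPM and ratios of 0.34 [0.26, 0.41] and 0.27 [0.19, 0.34]. On the opposite strand Gm10602 covers 18.8% of its exon bases. Per kilobase SHIP2 was still the more abundant of the pair in each library.

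**Figure D2:**
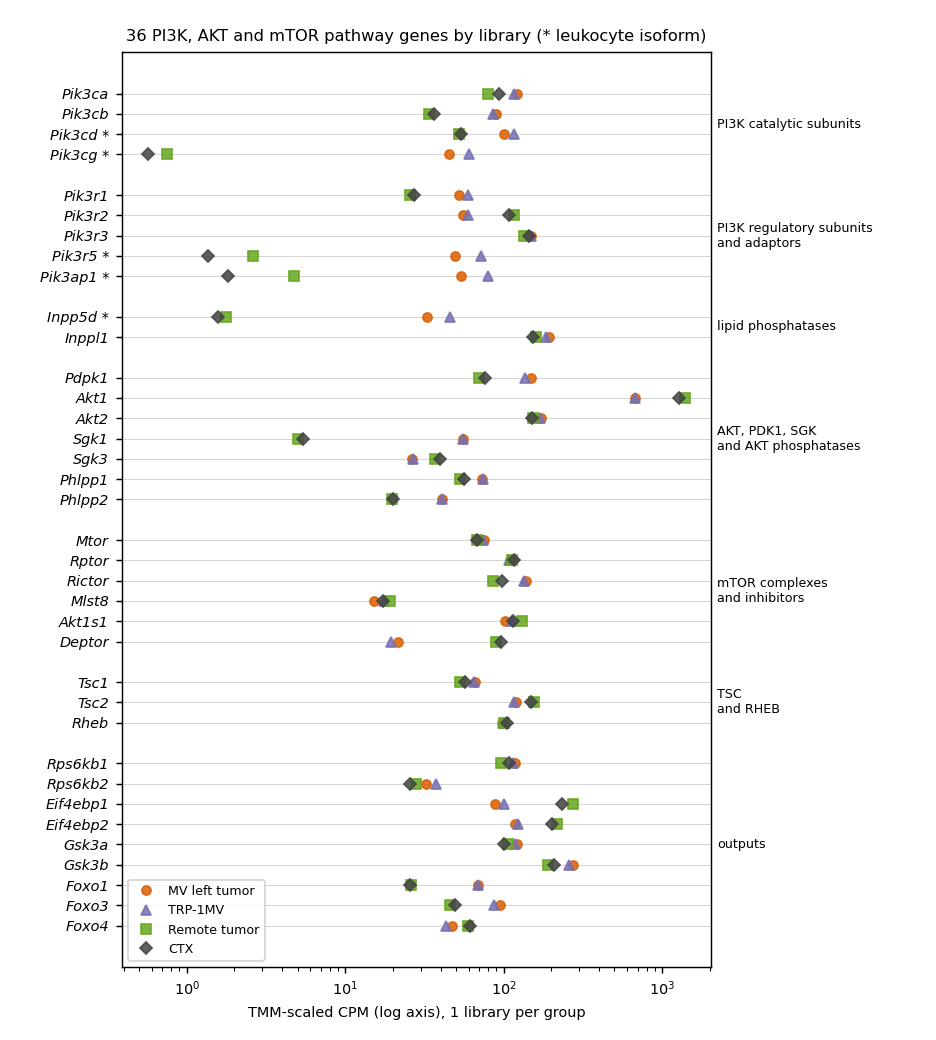
Points give the TMM-scaled CPM (log axis) of each of the 36 genes in the 4 libraries, ordered by role, with leukocyte isoforms starred. Pik3cg, Pik3r5, Pik3ap1 and Inpp5d lie at 0.574 to 4.77 CPM in CTX and the Remote tumor and at 32.9 to 79.7 in the virus-treated tumors, while Pik3cd lies at 52.1 or more in all 4.

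Among the kinases of the AKT branch, Sgk1 stood apart. Sgk1 (chromosome 10, 21882184 to 21999903) encodes a kinase related to AKT that mTOR complex 2 activates and that is induced by glucocorticoids, salt and other stimuli. It had 745 reads in the MV left tumor, 889 in TRP-1MV, 100 in the Remote tumor and 104 in CTX, or 55.1, 55.2, 5.02 and 5.42 CPM. The ratio to CTX was 10.2-fold in each virus-treated tumor, with log2 values of 3.35 [3.05, 3.66] and 3.35 [3.05, 3.65]. It was the highest ratio of the 31 members outside the leukocyte isoforms. Its relative Sgk3 had 26.6, 26.6, 36.9 and 39.5 CPM, and ratios of -0.57 [-0.76, -0.39] and -0.57 [-0.74, -0.40] that did not pass. Counted as a ratio of reads, Sgk1 to Sgk3 was 13.7 per 100 in CTX and 208 per 100 in the MV left tumor.

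Akt1 was the most abundant member per kilobase in all 4 libraries, at 310 CPM per kilobase in CTX and 165 in the MV left tumor. It encodes the AKT isoform that most cells use for growth and survival signals. Its levels were 676 CPM in the MV left tumor, 670 in TRP-1MV, 1384 in the Remote tumor and 1272 in CTX, and its ratios to CTX of -0.91 [-0.95, -0.88] and -0.93 [-0.96, -0.89] fell just short of the rule. Akt2, the isoform known for insulin responses, had 173, 170, 153 and 150 CPM and ratios of 0.20 [0.13, 0.28] and 0.18 [0.11, 0.26]. The read ratio of Akt1 to Akt2 was 847 per 100 in CTX, 902 in the Remote tumor, 391 in the MV left tumor and 393 in TRP-1MV, a change of -1.12 [-1.20, -1.03] from CTX to the MV left tumor.

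Pdpk1, encoding PDK1, the kinase that activates AKT and SGK, had 148, 136, 70.3 and 76.4 CPM in the MV left tumor, TRP-1MV, the Remote tumor and CTX. Its ratios to CTX were 0.95 [0.85, 1.05] and 0.83 [0.73, 0.93], short of the rule. Upper-quartile factors put the MV left tumor past it, and total counts or the housekeeping scale did so for both tumors. The PHLPP phosphatases remove an activating phosphate from AKT. Phlpp2 had 40.7, 41.0, 19.6 and 20.1 CPM and just passed the rule at 1.02 [0.83, 1.21] and 1.03 [0.84, 1.21]. Phlpp1, at 0.38 [0.25, 0.50] and 0.40 [0.28, 0.53], did not.

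Of the 6 genes of the mTOR complexes and their inhibitors, 0 were called higher and 1 lower in each virus-treated tumor against CTX, where 18.1% of all genes compared were called higher and 11.1% lower in the MV left tumor, with 18.5% and 11.7% for TRP-1MV. Mtor, the kinase itself, had 75.3 CPM in the MV left tumor, 73.8 in TRP-1MV, 67.8 in the Remote tumor and 67.9 in CTX, with ratios of 0.15 [0.03, 0.27] and 0.12 [0.01, 0.24]. Rptor, encoding the scaffold of complex 1, stood at -0.10 and -0.12, and Rictor, that of complex 2, at 0.50 [0.40, 0.59] and 0.45 [0.36, 0.54]. The read ratio of Rictor to Rptor was 84.0 per 100 in CTX and 127 per 100 in the MV left tumor, a change of 0.59 [0.46, 0.73]. Mlst8, a shared subunit, stood at -0.18 and 0.03, and Akt1s1, encoding the complex 1 inhibitor PRAS40, at -0.16 and -0.01. The signs of Rptor and Akt1s1 turned to positive in both tumors, and that of Mlst8 in the MV left tumor, when libraries were scaled on total counts or housekeeping genes, and Akt1s1 in TRP-1MV also turned with DESeq2 or upper-quartile factors. Bricd5 shares 22.5% of the exon bases of Mlst8 on the opposite strand, and the strand setting of the counts is not given in the sources used here.

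The gene called lower was Deptor (chromosome 15, 55112317 to 55259271), which encodes an inhibitor that binds mTOR in both complexes. It had 292 reads in the MV left tumor, 315 in TRP-1MV, 1775 in the Remote tumor and 1844 in CTX, or 21.6, 19.6, 89.2 and 96.2 CPM. The level in CTX was 4.45-fold that in the MV left tumor and 4.92-fold that in TRP-1MV, with log2 ratios of -2.15 [-2.34, -1.97] and -2.30 [-2.47, -2.12]. It had the lowest ratio of the 36 genes in both comparisons. The 10 melanocyte markers ranged from -2.45 to -1.25 in the MV left tumor against CTX, a range that holds the value of Deptor. Their part in it was not tested.

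The TSC complex and RHEB, the switch above complex 1, had no member past the rule. Tsc1 stood at 0.20 [0.07, 0.33] in the MV left tumor against CTX and Tsc2 at -0.31 [-0.40, -0.22], and in TRP-1MV they stood at 0.18 and -0.36. Rheb stood at -0.10 and -0.09. The signs of Tsc2 and Rheb turned in both tumors on the housekeeping scale, and that of Rheb also on total counts. The Tsc1 to Tsc2 read ratio was higher by 0.51 [0.35, 0.66] in the MV left tumor.

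Of the 9 outputs of the pathway, 1 was called higher and 1 lower in both virus-treated tumors, beside 18.1% and 11.1% of all genes in the MV left tumor, with 18.5% and 11.7% for TRP-1MV. Foxo1 (chromosome 3, 52268336 to 52353221), a transcription factor that AKT keeps out of the nucleus and that T and B cells use for homing and survival genes, had 934 reads in the MV left tumor, 1108 in TRP-1MV, 517 in the Remote tumor and 494 in CTX. The levels were 69.1, 68.8, 26.0 and 25.8 CPM, with log2 ratios to CTX of 1.42 [1.27, 1.58] and 1.42 [1.26, 1.57]. Foxo3 had 95.1, 86.4, 46.0 and 49.02 CPM and ratios of 0.96 [0.83, 1.08] and 0.82 [0.70, 0.94], short of the rule. With upper-quartile factors Foxo3 passed it in the MV left tumor, and on total counts or the housekeeping scale in both tumors. Foxo4 had 47.5, 43.5, 59.1 and 61.2 CPM and ratios of -0.37 and -0.49, which turned positive on the housekeeping scale. Within the reads per kilobase of these 3 genes, Foxo4 held 65.0% [63.2, 66.8] in CTX and 39.9% [37.8, 42.0] in the MV left tumor.

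Eif4ebp1 (chromosome 8, 27260329 to 27276674) encodes 4E-BP1, the translation repressor that mTOR complex 1 inactivates. It had 1191 reads in the MV left tumor, 1618 in TRP-1MV, 5436 in the Remote tumor and 4476 in CTX, or 88.1, 100.5, 273 and 233 CPM. Its log2 ratios to CTX of -1.41 [-1.50, -1.31] and -1.22 [-1.30, -1.13] were called lower, except on the housekeeping scale in both tumors and on total counts in TRP-1MV. Eif4ebp2 had 117, 123, 216 and 200.4 CPM and ratios of -0.78 [-0.86, -0.69] and -0.71 [-0.78, -0.63]. The S6 kinase gene Rps6kb1 stood at 0.13 and 0.10. Rps6kb2 stood at 0.34 [0.15, 0.53] and 0.55 [0.37, 0.72], and 23.7% of its exon bases lie opposite Ptprcap, a leukocyte gene with 395 reads in the MV left tumor, 519 in TRP-1MV, 16 in the Remote tumor and 14 in CTX. Whether reads of that gene were counted for Rps6kb2 was not tested. Gsk3a, at 0.28 and 0.25, and Gsk3b, at 0.40 and 0.31, encode the GSK3 kinases that AKT inhibits, and neither passed. On the opposite strand 9130221H12Rik covers 28.3% of the exon bases of Gsk3a.

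**Figure D3:**
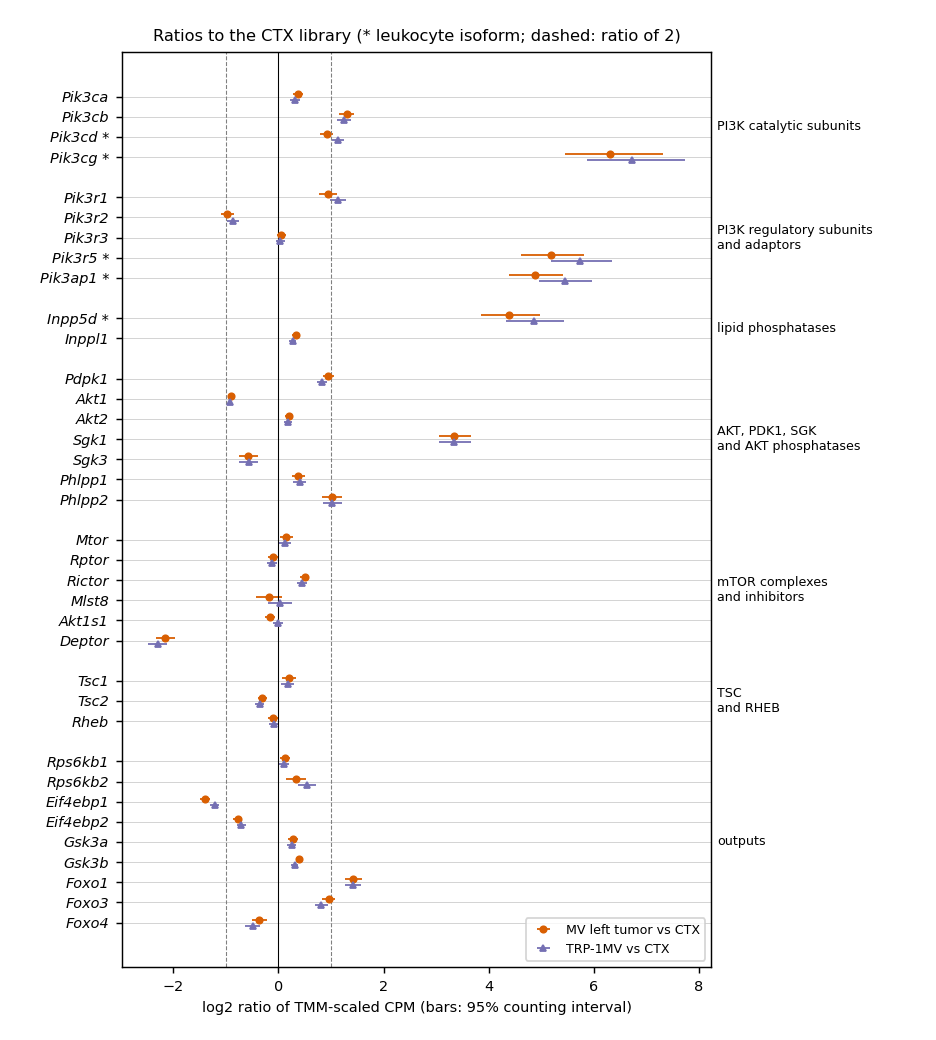
Points give log2 ratios of TMM-scaled CPM to the CTX library for the MV left tumor and TRP-1MV, with 95% counting intervals as bars and dashed lines at a ratio of 2. The starred leukocyte isoforms other than Pik3cd lie at 4.40 or above, Sgk1 at 3.35, and Deptor at -2.15 and -2.30.

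Counted over the list, 8 of 36 members were called higher and 2 lower in the MV left tumor against CTX, where 18.1% of all 13357 genes compared were called higher and 11.1% lower. In TRP-1MV 10 were called higher and 2 lower, against 18.5% and 11.7%. These comparisons share the CTX library. The members' shares lay near or somewhat above the background for higher calls and below it for lower calls. Without the ratio threshold, 23 members had intervals above equality and 10 below in the MV left tumor, beside 37.6% and 42.2% of all genes. In TRP-1MV these were 23 and 9, beside 37.6% and 43.7%. Among the 31 other members 4 were called higher in the MV left tumor, which were Pik3cb, Sgk1, Phlpp2 and Foxo1. Their median log2 ratio was 0.20, beside -0.05 over all genes compared, whereas the median of the 5 leukocyte isoforms was 4.88. In TRP-1MV the medians were 0.18 and 5.45, beside -0.07 over all genes. The 14 genes of the housekeeping list had a median of -0.61 in the MV left tumor on the TMM scale. With them as the scale, log2 ratios of the MV left tumor to CTX were all larger by 0.55, 13 members were higher and 1 lower, and so were 30.1% and 3.62% of all genes. Total counts as the scale moved the ratios up by 0.24, with 12 members higher and 2 lower, beside 22.1% and 6.66% of all genes. In TRP-1MV the housekeeping scale gave 13 and 1 members, beside 29.5% and 3.95% of all genes. Total counts there gave 12 and 1, beside 22.3% and 6.97%. The scales tried moved log2 ratios by at most 0.61 in any comparison, less than the ratio of 2 that a call needs. No called member could therefore change direction on them, and none did.

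**Figure D4:**
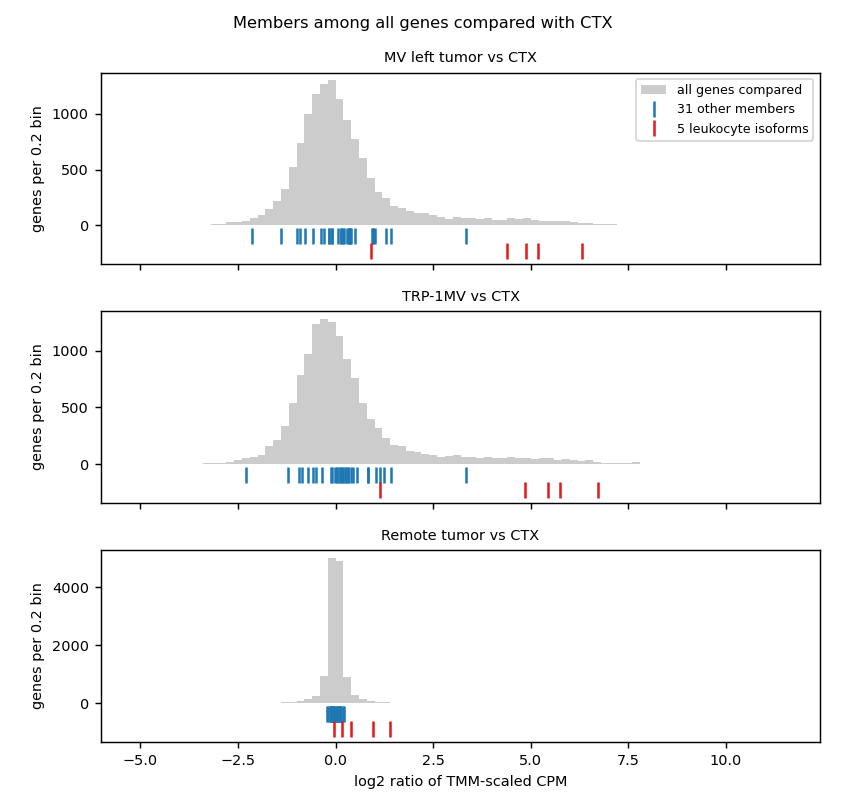
Grey bars count all genes compared, in bins of 0.2, by log2 ratio to CTX in the MV left tumor, TRP-1MV and the Remote tumor, and ticks below mark the 31 other members and the 5 leukocyte isoforms. The other members lie mostly within the main peak in each panel, and 4 leukocyte isoforms lie in the right tail of the upper panels.

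The Remote tumor was compared with CTX to see whether the uninjected flank differed from tumors whose label names no T cells and no virus. Among the 36 members 1 was called higher and 0 lower, where 0.434% of all genes were called higher and 0.225% lower. That member was Pik3ap1, with 95 reads against 35 and a log2 ratio of 1.39 [0.81, 1.99]. Pik3r5 had 52 reads against 26, a log2 ratio of 0.95 [0.24, 1.68] that fell just short. Per 100 Ptprc reads, Pik3ap1 had 183 reads in the Remote tumor and 54.7 in CTX, and Pik3r5 had 100.0 and 40.6, log2 changes of 1.74 [0.92, 2.56] and 1.30 [0.38, 2.23]. Ptprc itself had 52 and 64 reads, and its ratio was the second lowest of the 8 leukocyte markers. With each of the 8 as the reference, the change ran from 1.06 to 2.03 for Pik3ap1, past a ratio of 2 with 8 of 8. For Pik3r5 it ran from 0.62 to 1.58 and was past that ratio with 4 of 8. The 8 values of each gene rest on the same reads of that gene, so they are not separate results. Pik3cg at 0.39 [-0.83, 1.66] and Inpp5d at 0.17 [-0.58, 0.92] had intervals that include equality, at 11 to 35 reads a library. Beside these values, 2 of 11 macrophage and monocyte markers were called higher in the Remote tumor, Cd14 at 1.61 and Adgre1 at 1.09. Of those 11 markers 9 had ratios above equality and 2 below, the lowest being Fcgr1 at -0.68. Among the 10 T cell markers 0 were called higher. The neutrophil marker Csf3r was also called, at 1.13 from 25 and 11 reads. Mmp9, the only other neutrophil marker with a ratio, stood at -0.25. The summed macrophage level was 111 CPM in the Remote tumor and 87.8 in CTX, and its part in the Pik3ap1 value was not tested.

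The 31 other members ranged from -0.23 (Pik3ca) to 0.23 (Eif4ebp1) between the Remote tumor and CTX, and their median was -0.06. Counting error alone was narrow enough for 8 of these 31 intervals to lie above equality and 7 below it. Over all 36 members the counts were 10 and 7, beside 12.1% and 12.0% of all genes. The largest on the higher side were 0.23 [0.17, 0.28] for Eif4ebp1 and 0.18 [0.10, 0.26] for Akt1s1. Pik3ca at -0.23 [-0.33, -0.13] and Rictor at -0.20 [-0.29, -0.10] were the largest on the lower side. Differences of this size between 2 single libraries have no replicate check.

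Measured against the Remote tumor instead of CTX, the MV left tumor shared its treatment group and differed in flank and injection. The MV left tumor library is also that of the comparison with CTX. In this comparison 11 members were called higher and 4 lower, where 18.6% and 11.7% of all genes were. Intervals lay above equality for 24 members and below it for 10, beside 38.5% and 42.1% of all genes. The 8 genes higher than in CTX were among the 11, and Pik3r1 at 1.02 [0.86, 1.19], Pdpk1 at 1.07 [0.97, 1.17] and Foxo3 at 1.05 [0.92, 1.17] joined them. The lower genes were Deptor at -2.05 [-2.23, -1.87], Eif4ebp1 at -1.63 [-1.72, -1.54], Pik3r2 at -1.07 [-1.19, -0.95] and Akt1 at -1.03 [-1.069, -1.0001]. On the housekeeping scale 16 were higher and 2 lower, beside 32.8% and 3.26% of all genes. The lower calls of Pik3r2 and Akt1 ended on that scale and on total counts, and that of Akt1 also with upper-quartile factors. The genes that joined had missed the rule against CTX on the TMM scale, with log2 ratios of 0.94, 0.95, 0.96, -0.98 and -0.91 for Pik3r1, Pdpk1, Foxo3, Pik3r2 and Akt1.

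The delivery of virus by T cells was compared with injected free virus in the pair of virus-treated tumors. All 36 members had ratios below 2 between TRP-1MV and the MV left tumor, so 0 were called higher and 0 lower, where 0.562% and 0.217% of all genes were. All 5 leukocyte isoforms were nonetheless higher in TRP-1MV with intervals above equality, as 11.0% of all genes were. The log2 ratios were 0.57 [0.44, 0.70] for Pik3ap1, 0.55 [0.41, 0.69] for Pik3r5, 0.47 [0.29, 0.64] for Inpp5d, 0.42 [0.27, 0.57] for Pik3cg and 0.21 [0.11, 0.32] for Pik3cd. The 31 other members ranged from -0.14 (Deptor) to 0.21 (Rps6kb2), with a median of -0.02 and with 4 intervals above equality and 3 below, where 11.1% of all genes lay below. Per Ptprc read the changes were 0.15 [0.02, 0.29] for Pik3cd up to 0.51 [0.35, 0.67] for Pik3ap1, but Ptprc, at 0.06, had the lowest ratio of the 8 leukocyte markers, whose median was 0.26, and so gives the highest values. Over the 8 markers Pik3cd ranged from -0.30 to 0.15, with 1 interval above no change and 3 below, and Pik3ap1 from 0.06 to 0.51, with 5 above and 0 below. Pik3r5 ranged from 0.04 to 0.49, Pik3cg from -0.09 to 0.36 and Inpp5d from -0.04 to 0.41, with 5, 4 and 4 intervals above. For Pik3cd, Pik3cg and Inpp5d the direction of the change per marker read thus depended on the marker. Pik3r5 and Pik3ap1 stood above no change with 8 of 8 markers, though only 5 intervals of each excluded it.

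Cell type markers differed alongside. The 11 macrophage and monocyte markers had a median log2 ratio of 0.48 between TRP-1MV and the MV left tumor, with 10 intervals above equality. The 10 T cell markers had a median of 0.02 and 0 intervals on either side of equality, and the 7 B cell markers a median of 0.02. Among the 7 neutrophil markers, 5 passed the minimum count with a median of 0.54, though Ly6g and Cxcr2, which help define the type, had 11 reads or fewer in each library. The leukocyte isoforms, at 0.21 to 0.57, lay within the range of the macrophage and monocyte markers, 0.19 to 0.68. The neutrophil markers past the minimum count ranged from 0.26 to 1.20, which holds every isoform but Pik3cd. The 8 general leukocyte markers ranged from 0.06 to 0.51, which holds Pik3cd, Pik3cg and Inpp5d but not Pik3r5 and Pik3ap1. The part of any cell type in the difference was not tested.

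**Figure D5:**
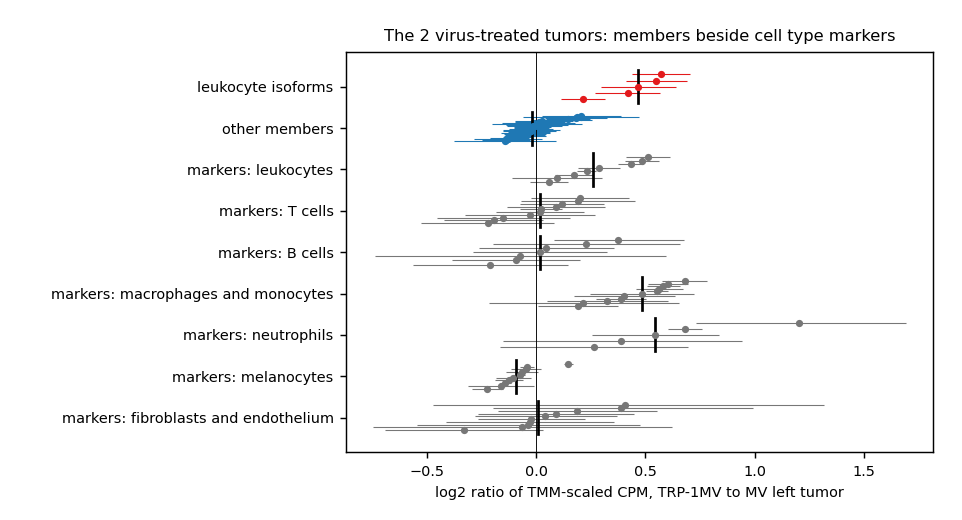
Points give log2 ratios of TMM-scaled CPM between TRP-1MV and the MV left tumor with 95% counting intervals, for the leukocyte isoforms, the other members and markers of 7 cell classes, and black bars mark medians. The medians are 0.47 for the leukocyte isoforms, 0.48 for macrophage and monocyte markers, 0.54 for neutrophil markers and 0.26 for general leukocyte markers. T cell and B cell markers are centred at 0.02.

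Further genes of the pathway, listed apart from the 36, were read in the same way. Of 22 other PI3K and phosphoinositide genes 21 were measured, and 8 were called higher and 0 lower in the MV left tumor against CTX, with a median of 0.52, and 7 and 0 in TRP-1MV, beside 18.1% and 11.1% of all genes in the former and 18.5% and 11.7% in the latter. Among the highest was Pik3r6, encoding p84, the alternative partner of the gamma subunit, which was counted with 132 reads in the MV left tumor, 227 in TRP-1MV, 4 in the Remote tumor and 6 in CTX. Its ratio to CTX was 4.96 [3.80, 6.44] in the MV left tumor, and that of Btk, a kinase of B and myeloid cells, was 4.22 [3.33, 5.25]. The lowest were Plcg1 at -0.60, Inpp4b at -0.52 and Pik3c3 at -0.11.

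Of 32 other mTOR complex and nutrient sensing genes 4 were called higher and 3 lower in the MV left tumor, with a median of -0.02, and 4 and 2 in TRP-1MV, where the shares of all genes were again 18.1% and 11.1%, and 18.5% and 11.7%. Prr5l, a subunit partner of complex 2, was counted with 128 reads in the MV left tumor against 12 in CTX and stood at 3.92 [3.07, 4.91]. Ddit4l at 1.41 and Fnip1 at 1.11 were next. Telo2, part of the chaperone complex that stabilises mTOR and related kinases, had 341 reads in the MV left tumor, 398 in TRP-1MV, 2399 in the Remote tumor and 2370 in CTX. Its ratio of -2.29 [-2.46, -2.13] was the lowest of that list, lower than that of Deptor. Lamtor2 at -1.25 and Lamtor4 at -1.01, both of the lysosomal anchor of complex 1, followed.

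Among 15 genes known as FOXO targets, 10 were called higher and 1 lower in each virus-treated tumor against CTX, with medians of 1.85 and 1.87. Over all genes the medians were -0.05 and -0.07, and the shares called were 18.1% higher and 11.1% lower in the MV left tumor, with 18.5% and 11.7% for TRP-1MV. Among the highest in the MV left tumor were Il7r at 5.62 [4.80, 6.58] and S1pr1 at 3.92 [3.24, 4.68], which serve survival and exit from tissue in lymphocytes. Trim63, a ubiquitin ligase gene, at -1.64, Cat, encoding catalase, at -0.89 and Sod2, encoding mitochondrial superoxide dismutase, at -0.10 were the lowest. The sign of Sod2 differed between the tumors, at 0.26 in TRP-1MV. No gene of this list was called in the Remote tumor, where Il7r stood at -0.83 [-2.42, 0.63] and S1pr1 at 0.74 [-0.11, 1.64].

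Among 15 genes of translation control 2 were called higher and 1 lower in each virus-treated tumor, with medians of -0.07 and -0.05, beside the same shares of all genes, 18.1% and 11.1% in the MV left tumor, with 18.5% and 11.7% for TRP-1MV. Eef2k, encoding the elongation factor 2 kinase, which S6 kinase inhibits, had 275 reads in the MV left tumor, 319 in TRP-1MV, 2819 in the Remote tumor and 2685 in CTX. Its log2 ratios to CTX were -2.78 [-2.97, -2.60] and -2.82 [-2.99, -2.65]. Pdcd4, a translation inhibitor that S6 kinase marks for destruction, stood at 1.97 [1.79, 2.16], Ulk1, the autophagy kinase that complex 1 restrains, at 1.35, and Rps6ka1 at 0.72. Eif4a1 at -0.78 and Rps6ka3 at -0.53 were the other low members. All of these are differences in RNA, and the activity of the kinases was not measured.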

How the data were processed

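The authors deposited 4 tables of raw, unnormalized counts per gene symbol, each of 1 library. Per the submitters' processing notes, reads were aligned with HISAT2 and counted with featureCounts on mm10. Not given in the sources used here are versions, gene annotation, strand setting and the handling of multiply mapped reads. Groups came from sample titles.

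Counts were scaled with TMM over the 4 libraries (edgeR 4.0.16, R 4.3.3). Genes with a mean count of at least 10 were compared. Ratios carry 95% exact conditional binomial (Clopper-Pearson) intervals (scipy 1.17.1, Python 3.11.15), for counting error only. A library at 0 was set to 3 counts, which are 0.151 to 0.222 CPM. Read ratios of 2 genes within a library were compared as odds ratios with exact conditional intervals; the use of leukocyte markers other than Ptprc was added after the data were seen. Exon lengths and overlaps came from GENCODE M21 and promoters from RefSeq, both on the mm10 assembly. The ratio script was tested on simulated data. The genes named were all 36 members and, of each other list, the 3 highest and 3 lowest in the MV left tumor against CTX. Some genes that the rule names are not reported here. A few genes named beside a count were added after their values were seen. The members and lists were chosen with earlier results of these data known.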

Additional observations from a re-analysis of the deposited data

How the results depend on the processing

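The calls were recomputed with 5 other scalings, 2 other count minimums, 2 other ratio thresholds, thinned counts, a prior count of 2 and means in place of medians. No called member reversed, an outcome fixed in advance for the scalings, count minimums and ratio thresholds. On the housekeeping scale the leukocyte isoform medians were 5.43 (MV left tumor to CTX), 5.99 (TRP-1MV to CTX) and 4.84 (MV left to Remote tumor), and those of the other members 0.75, 0.72 and 0.80. On total counts the latter were 0.44, 0.42 and 0.44. Means over the leukocyte isoforms were 4.34 and 4.78 against CTX. Members called higher in the MV left tumor against CTX numbered 13 on the housekeeping scale (30.1% of all genes). With upper-quartile factors they numbered 11 (19.1%) and on total counts 12 (22.1%). At a ratio of 4 they numbered 5 in the MV left tumor against CTX (10.9%), 5 in TRP-1MV against CTX (11.2%), 5 in the MV left against the Remote tumor (10.7%) and 0 in the Remote tumor against CTX (0.120%). That last comparison gave 2 at a ratio of 1.5 (0.711%) and 2 after thinning (0.452%). Members called lower against CTX numbered 1 on the housekeeping scale in the MV left tumor (3.62%) and in TRP-1MV (3.95%), and 1 on total counts in TRP-1MV (6.97%). They numbered 5 in each at a ratio of 1.5 (24.1% and 24.8%), and 1 in each at a ratio of 4 (1.69% and 1.80%). Against the Remote tumor they numbered 2 on total counts (6.75%), 2 on the housekeeping scale (3.26%) and 1 at a ratio of 4 (1.72%). The scalings and thresholds shift these values by construction, and the cause of the change after thinning was not tested. No paired analysis was possible because 1 library stood for each group, and for the same reason no library could be left out. Depth limits the 4 leukocyte isoforms that had 11 to 35 reads in CTX.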

Other observations

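Upstream of the pathway, receptors and adaptors differed in both directions between the MV left tumor and CTX. Of 23 such genes 20 were measured. The costimulatory receptor Cd28, which binds PI3K directly, had 637 reads in the MV left tumor, 752 in TRP-1MV, 5 in the Remote tumor and 5 in CTX, a log2 ratio to CTX of 7.50 [6.27, 9.13] in the MV left tumor. Its relative Icos had 657, 850, 4 and 8 reads and stood at 6.86 [5.88, 8.08]. Of the 20 genes, 9 were called higher and 2 lower in the MV left tumor, whereas TRP-1MV had 8 and 1, beside 18.1% and 11.1% of all genes in the former and 18.5% and 11.7% in the latter. The lowest were receptor tyrosine kinases, with Erbb3 at -1.13 [-1.25, -1.01], Erbb2 at -1.08 [-1.29, -0.88] and Met at -0.87 [-0.91, -0.82], the last short of the rule. Irs2, the insulin receptor substrate, stood at 2.21 [2.02, 2.40] in the MV left tumor and 2.21 [2.03, 2.40] in TRP-1MV, and was named after its values were seen. Egfr, Igf2 and Hgf fell below the minimum count.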
